A study of Drosophila melanogaster with 33 samples.

Results

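The genes described here encode the subunits of the Drosophila proteasome. They were taken by symbol as the genes in the count files whose names begin with Prosalpha, Prosbeta, or Rpn or Rpt and a digit, which gave 47 of 16727 genes. Of these, 32 are canonical subunit genes, with 7 of the 20S alpha ring, 7 of the 20S beta ring, 6 ATPases and 4 other subunits of the 19S base, and 8 of the 19S lid. The other 15 are variant copies, whose symbols end in R or T with or without a number, several of them known from testis, and they are described apart. The canonical genes lie on 2R (10 genes), 3R (9 genes), 3L (5 genes), X (4 genes) and 2L (4 genes).

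The proteasome degrades proteins that carry ubiquitin chains. Its 20S core is a barrel of stacked rings, in which the outer alpha rings gate the entrance and the inner beta rings hold the proteolytic sites. The 19S regulatory particle caps the barrel, where its lid and base bind and deubiquitinate the substrate and a ring of ATPases unfolds it and threads it into the core. In neurons the proteasome also turns over synaptic proteins.

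RNA was measured in 12 libraries in 4 groups of 3. The Atx2 RNAi brains came from elav-Gal4, UAS-Atx2-RNAi flies with Tub-Gal80ts, and the Gal4 control brains from flies labelled Elav Gal4 with no RNAi construct. In the study's design adults were moved at 1 day of age to 29 °C for 5 days to release Gal4, and each brain library held 10 to 12 brains. elav drives Gal4 in neurons, so the glia and other cells in the dissected brain are not targeted by the RNAi. The S2 libraries came from S2R+ cells, an embryonic Drosophila cell line, given double-stranded RNA against Atx2 or, as mock RNAi, against GFP. A further 12 libraries are TRIBE experiments, in which Atx2 joined to the deaminase part of ADAR, an RNA-editing enzyme, was expressed in brain under elav-Gal4, with 2 libraries each for Atx2 WT, delta Lsm, delta LsmAD, delta mIDR, delta cIDR and Lsm+LsmAD only. Of the 33 samples of the series, the other 9 were not analysed here. The labels do not say whether replicates came from separate crosses or cultures, so p-values measure only the spread between these samples.

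The count libraries held between 11169973 and 16108727 gene counts. Levels are given as CPM, the share of a library's counts scaled by the trimmed mean of M-values (TMM), and fold changes are from edgeR's quasi-likelihood test with Benjamini-Hochberg adjusted p over all genes tested, called at an adjusted p under 0.05. Atx2 itself had 201, 252 and 264 CPM in the Atx2 RNAi brains, against 287, 302 and 316 CPM in the Gal4 control brains. The brain groups did not overlap, and the log2 fold change of -0.34 (SE 0.13) missed the threshold with an adjusted p of 0.0611, whereas DESeq2 called it lower at -0.39. In S2 cells Atx2 went against the label, with 1002, 686 and 841 CPM in the libraries labelled Atx2 RNAi and 228, 226 and 232 CPM in the mock libraries (log2 fold change 1.88, SE 0.16, adjusted p = 0.0019). Every direction given below for S2 cells is therefore that of the libraries labelled Atx2 RNAi, in which Atx2 counts were higher. Gal4 control brain replicate 1 stood apart from the other brain libraries, with 22.0% of its counted lines assigned to no gene feature, against 12.2% to 14.4% in the others, and with 1910306 non-unique alignments, against 247352 to 295654. The main brain results are given with and without it. Other brain values include it unless stated.

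In brain, the question was how the level of each subunit mRNA differed between Atx2 RNAi and Gal4 control flies. Genes of the 20S core rose, and most genes of the 19S particle did not pass the test. Of the 13 core genes with enough counts, 12 rose, with all 6 tested alpha genes and 6 of 7 beta genes among them, and their median log2 fold change was 0.49. Of the 18 genes of the 19S particle, 2 rose, the lid genes Rpn6 and Rpn9, and the median was 0.23. None of the 6 ATPase genes was called by edgeR, by DESeq2 or at an unadjusted p under 0.05. Over all members tested, 14 of 32 rose, where 23.3% of all 9197 genes tested did, and 0 of 32 fell, also with DESeq2 and at an unadjusted p under 0.05, where 18.6% of all genes did. The median over all genes tested was 0.06. Scaling by library size alone shifted the median of all genes to 0.27, that of the core genes to 0.70 and that of the 19S genes to 0.43. It gave 3156 genes higher and 925 lower, against 2143 and 1713 with TMM.

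**Figure D1:**
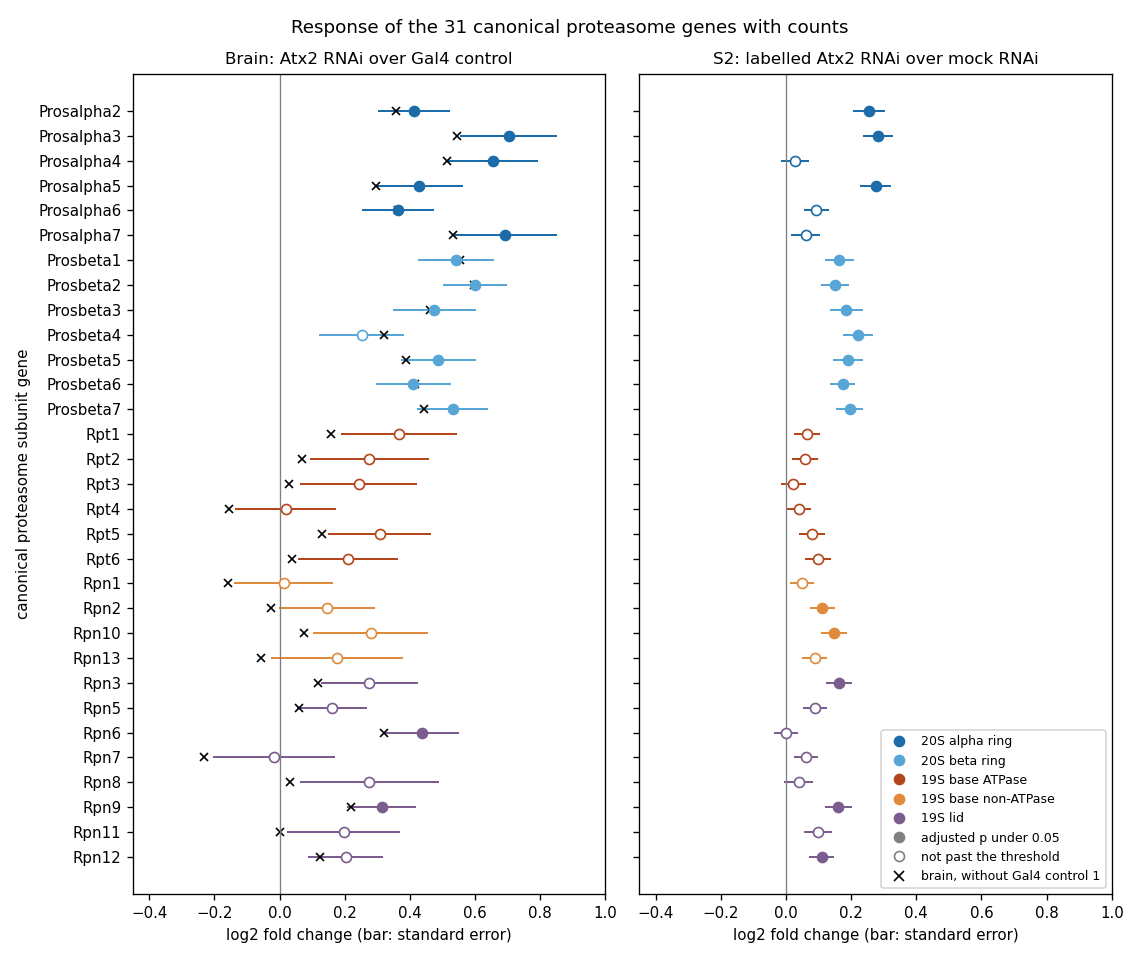
Log2 fold change (horizontal axis) of the 31 canonical proteasome genes with counts, in brain (Atx2 RNAi over Gal4 control, left) and S2 cells (libraries labelled Atx2 RNAi over mock RNAi, right). Points are edgeR estimates with standard errors, filled where the adjusted p is under 0.05, and crosses show the brain estimate without Gal4 control replicate 1. In brain, 12 of 13 core genes are filled, and the crosses of 15 of the 18 genes of the 19S particle lie closer to 0 than their points (those of Rpn1, Rpn7 and Rpt4 lie further below), with a median of 0.05.

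With all libraries, the largest estimates were those of alpha ring genes. Prosalpha3 had 41.5, 37.4 and 38.0 CPM in Atx2 RNAi brains and 18.8, 25.2 and 27.6 CPM in Gal4 control brains, a 1.63-fold rise (log2 fold change 0.70, SE 0.15, adjusted p = 0.0073). Prosalpha7 had 48.6, 39.4 and 42.1 CPM in Atx2 RNAi brains, against 21.0, 30.5 and 28.8 CPM in control brains (log2 fold change 0.69, SE 0.16, adjusted p = 0.0098). Prosalpha4 had 39.1, 34.8 and 38.5 CPM in Atx2 RNAi brains, against 19.4, 24.5 and 27.4 CPM in control brains (log2 fold change 0.65, SE 0.14, adjusted p = 0.0077). For each of these 3 genes every Atx2 RNAi library lay above every control library, and the lowest of the control values was that of replicate 1. Without replicate 1 they still rose, by 0.55 for Prosalpha3, 0.53 for Prosalpha7 and 0.51 for Prosalpha4 on the log2 scale. The beta genes Prosbeta2 (0.60) and Prosbeta1 (0.55) then had the largest estimates, and the ring medians were 0.44 each for alpha and beta genes. With all libraries, Prosalpha5 (0.43), Prosalpha2 (0.41) and Prosalpha6 (0.36) rose less, with adjusted p between 0.0180 and 0.0319. Without replicate 1 the estimates were 0.29 for Prosalpha5, 0.36 for Prosalpha2 and 0.36 for Prosalpha6. Prosalpha1 could not be assessed. It had 0 counts in all 12 libraries, as did its neighbour on 2R, which the count files list as CG30382 and the annotation as Prosalpha1R. Both have 735 coding nucleotides and are near-identical copies, and reads that match both places would not be counted for either, so the 0 is not a measure of its mRNA. For a single-copy gene 3 counts over all 12 libraries would be 0.0189 CPM.

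The beta ring carries the catalytic subunits Prosbeta1 (caspase-like), Prosbeta2 (trypsin-like) and Prosbeta5 (chymotrypsin-like), and all 3 rose. Prosbeta2 had 53.8, 49.0 and 52.9 CPM in Atx2 RNAi brains, against 35.0, 32.4 and 35.5 CPM in control brains. Its replicates were close and its groups well separated, and the 1.52-fold rise (0.60 on the log2 scale, SE 0.10, adjusted p = 0.0026) was 0.60 also without control replicate 1. Prosbeta1 had 38.5, 31.1 and 33.4 CPM in Atx2 RNAi brains, against 24.5, 23.7 and 22.6 CPM in control brains (log2 fold change 0.54, SE 0.12, adjusted p = 0.0077). Prosbeta5, the core mRNA with the highest level per kilobase in both groups, had 69.3, 59.1 and 63 CPM in Atx2 RNAi brains, against 39.9, 48.1 and 48.4 CPM in control brains (log2 fold change 0.49, SE 0.11, adjusted p = 0.0113). Neither gene's groups overlapped. Of the beta genes without a catalytic site, Prosbeta7 rose by 0.53 (SE 0.11, adjusted p = 0.0062), Prosbeta3 by 0.47 (SE 0.13, adjusted p = 0.0189) and Prosbeta6 by 0.41 (SE 0.11, adjusted p = 0.0215). Prosbeta4 was the exception in the core, with 35.2, 35.9 and 28.9 CPM in Atx2 RNAi brains and 31.3, 27.2 and 25.6 CPM in control brains. These values overlap, and the log2 fold change of 0.25 (SE 0.13) did not pass (adjusted p = 0.149).

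In the 19S particle the values of control replicate 1 set much of what was seen. Rpn6, a lid subunit that links lid and core, had 82.7, 80.6 and 81.8 CPM in Atx2 RNAi brains, against 51.4, 66.7 and 62.7 CPM in control brains (log2 fold change 0.44, SE 0.11, adjusted p = 0.0161). It rose also without control replicate 1 (0.32, adjusted p = 0.0164). The lid subunit Rpn9 had 56.8, 55.9 and 54.1 CPM in Atx2 RNAi brains, against 39.6, 46.0 and 48.4 CPM in control brains (0.31, SE 0.11, adjusted p = 0.0425), and without control replicate 1 it missed the threshold (0.22, adjusted p = 0.0651). The ubiquitin receptors Rpn1, Rpn10 and Rpn13 had log2 fold changes of 0.01, 0.28 and 0.18, and the deubiquitinase Rpn11 one of 0.20, and none of these passed. Without control replicate 1 the 4 genes had -0.16, 0.07, -0.06 and 0.002, in the same order. Rpn13 had 46.8, 43.9 and 47.5 CPM in Atx2 RNAi brains, against 27.2, 45.7 and 49.1 CPM in control brains. Control replicate 1 lay far below its group here, and the 2 other control libraries overlapped the RNAi libraries. Across the ATPase ring, estimates ran between 0.02 (Rpt4) and 0.37 (Rpt1), with standard errors of 0.15 to 0.18. Without control replicate 1 these estimates ran between -0.15 and 0.16.

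Summed over genes, the core had 561, 488 and 521 CPM in Atx2 RNAi brains, against 344, 379 and 380 CPM in Gal4 control brains, and these groups did not overlap. The 19S genes summed to 1121, 1019 and 1067 CPM in Atx2 RNAi brains, against 704, 1007 and 1044 CPM in control brains, where control replicate 1 was low and the other 2 lay next to the RNAi libraries. All 18 genes of the 19S particle were lower in control replicate 1 than the mean of control replicates 2 and 3, with a median log2 difference of -0.54 (-0.83 to -0.20), whereas the 13 core genes had a median of -0.12 with 7 of them below 0, and all genes tested a median of -0.01. The ratio of the core sum to the 19S sum was 0.501, 0.479 and 0.488 in Atx2 RNAi brains and 0.489, 0.377 and 0.365 in control brains. The ratio thus overlapped only through control replicate 1. Without that library the core genes had 12 of 13 higher with a median of 0.44, and the 19S genes 1 of 18 higher with a median of 0.05, and the median over the 33 members then tested fell to 0.13, against 0.29 over 32 with all libraries. In that fit 2193 of all 9376 genes tested were higher, with a median of 0.04, close to that of the 19S genes. What set replicate 1 apart was not tested.

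**Figure D2:**
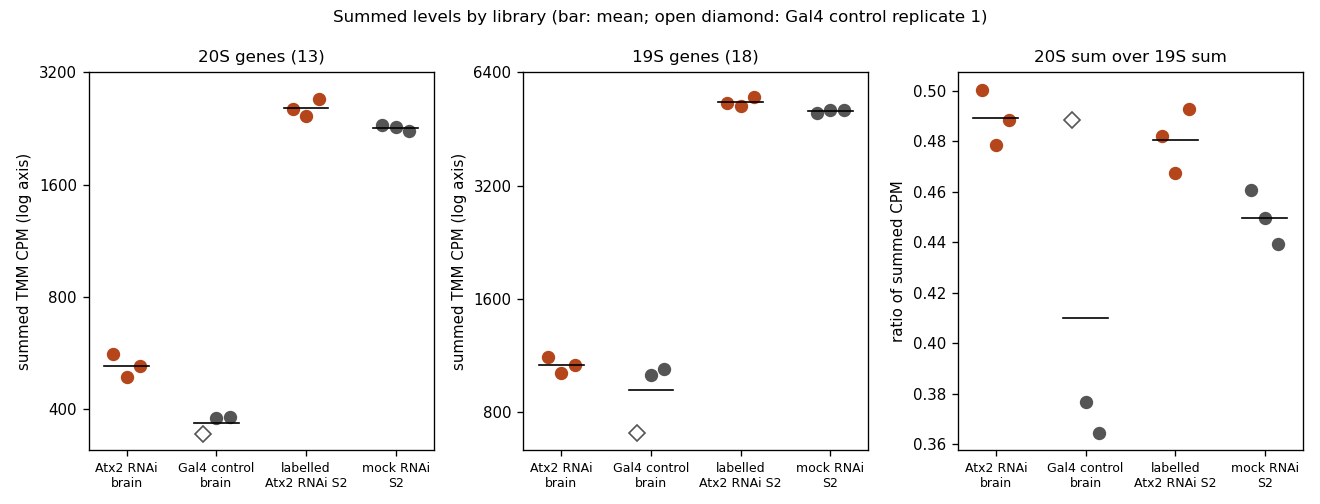
Summed TMM CPM by library of 13 core genes (left, log axis) and 18 genes of the 19S particle (middle, log axis), and the ratio of the sums (right), for Atx2 RNAi brain, Gal4 control brain, the S2 libraries labelled Atx2 RNAi and mock RNAi S2. Bars are means of 3 libraries and the open diamond is Gal4 control brain replicate 1, whose 19S sum of 704 CPM lies below the 1007 and 1044 CPM of the other controls.

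The number of calls depended on single libraries. Without Gal4 control replicate 2 it was 9 members, and without Atx2 RNAi replicate 1 or replicate 3 it was 7, all of them core genes. Of all genes, 1783 were higher without Gal4 control replicate 2, 1389 without Atx2 RNAi replicate 1 and 1499 without Atx2 RNAi replicate 3. Over 13 fits (the 1 reported and 12 alternatives), 7 members were called higher each time, which were Prosalpha3, Prosalpha4, Prosalpha7, Prosbeta1, Prosbeta2, Prosbeta5 and Prosbeta7. How many of all genes were called in every fit was not counted, so this is no measure of how stable the members are beside other genes. Counted without a model, 17 of 32 members had every Atx2 RNAi library above every control library, 12 of them core genes, where 32.3% of all genes tested did.

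Transcript length moved with the response of all genes. Core transcripts are short, 815 to 1215 nt for the longest annotated transcript, and the 19S transcripts span 995 to 3412 nt. Among the other genes tested in brain, the median log2 fold change was 0.41 in transcripts up to 500 nt and -0.40 in those of 5600 to 8000 nt. In a comparison added after the data were seen, the 1128 other genes in the length span of the core had a median of 0.34 and 35.1% of them rose, beside the 0.49 and 12 of 13 of the core genes. The 5400 other genes in the length span of the 19S genes had a median of 0.17 and 27.9% of them rose, beside 0.23 and 2 of 18. Among the 19S genes, however, only Rpn1 (3041 nt) and Rpn2 (3412 nt) have transcripts above 2000 nt. Other genes of 1000 to 1400 nt had a median of 0.30 and those of 1400 to 2000 nt one of 0.25, both above the 19S median. Without Gal4 control replicate 1 the 19S genes had 0.05 and the genes in their length span 0.13, so that they lay below these, and the core genes had 0.44, beside 0.32 in their span. Rpn12 (995 nt) and Rpn11 (1208 nt), the 19S genes whose transcripts are as short as those of the core, had log2 fold changes of 0.20 each and did not pass. The part of length in the result was not tested.

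**Figure D3:**
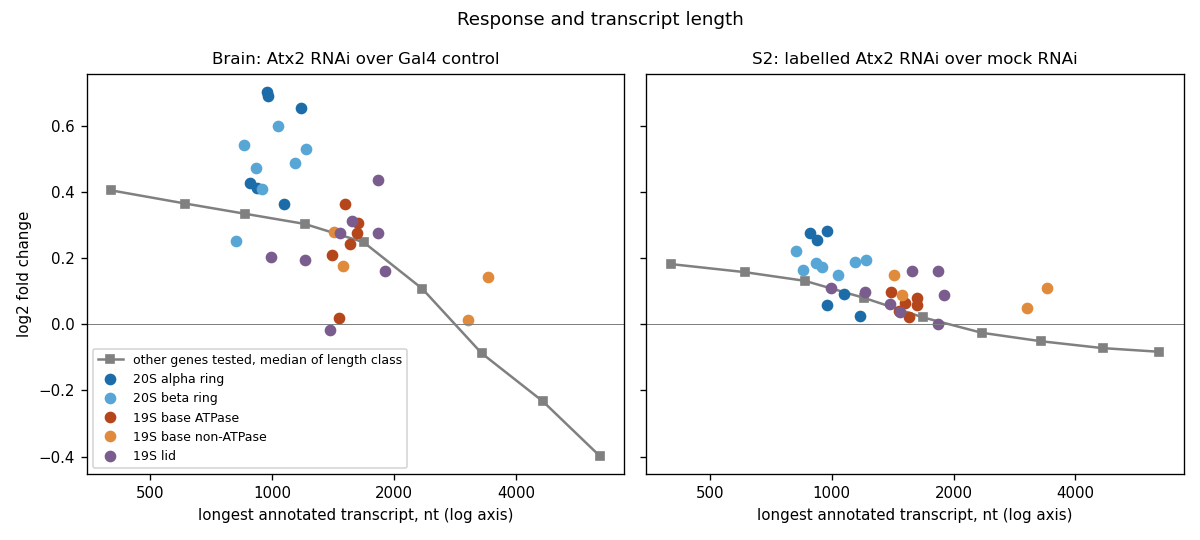
Log2 fold change against the longest annotated transcript (nt, log axis) in brain (Atx2 RNAi over Gal4 control, left) and S2 cells (libraries labelled Atx2 RNAi over mock RNAi, right). Coloured points are the 31 canonical genes and grey squares the median of other genes tested in each length class, which in brain runs between 0.41 for the shortest and -0.40 for the longest, with 12 of the 13 core genes above the grey line.

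Markers of other cell types differed between the brain groups too. Neuron markers summed to 10605 to 12706 CPM in Atx2 RNAi brains and 18802 to 22714 CPM in control brains, with 9 of 10 lower. Glia markers summed to 4173 to 5120 CPM in Atx2 RNAi brains and 6402 to 7347 CPM in control brains (4 of 6 lower), and muscle markers to 217 to 235 CPM in Atx2 RNAi brains and 492 to 550 CPM in control brains (6 of 6 lower). Fat body markers summed to 6716 to 19913 CPM in Atx2 RNAi brains and 123 to 515 CPM in control brains, with 5 of 7 higher and 1 lower, and hemocyte markers to 1372 to 1808 CPM in Atx2 RNAi brains and 557 to 1065 CPM in control brains (4 of 6 higher). In Atx2 RNAi brains the fat body sum was mostly Yp1, Yp2, Yp3 and Lsp2 (means 4873, 3005, 3990 and 2175 CPM). Fbp1 was the marker that fell, and Apoltp did not pass. Photoreceptor markers summed to 1199 to 1609 CPM in Atx2 RNAi brains and 955 to 989 CPM in control brains (3 of 6 higher). The part of all these markers in the proteasome result was not tested, and in bulk tissue fewer cells of a type and less RNA per cell cannot be told apart.

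The same question was asked in S2 cells. Core genes rose again, by less. In the libraries labelled Atx2 RNAi, 10 of 13 core genes rose with a median log2 fold change of 0.18, including all 7 beta genes and 3 of 6 alpha genes. Of the 18 genes of the 19S particle, 5 rose (Rpn2, Rpn3, Rpn9, Rpn10 and Rpn12) with a median of 0.08, and again 0 of 6 ATPases with either edgeR or DESeq2 (1 at an unadjusted p under 0.05). In all, 15 of 33 members tested rose, where 14.5% of the 7567 genes tested did, and 0 fell with either tool or at an unadjusted p under 0.05, where 14.6% of all genes did. Upper-quartile scaling gave 1450 genes higher and 782 lower, against 1094 and 1103 with TMM. The median was 0.10 over these members and 0.01 over all genes. Of the 33 members, 21 had every library labelled Atx2 RNAi above every mock library, where 21.8% of all genes tested did.

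The changes were small and the S2 replicates close. Prosalpha3 had 204, 189 and 219 CPM in the libraries labelled Atx2 RNAi, against 165, 173 and 165 CPM in the mock libraries, a 1.22-fold rise (log2 fold change 0.28, SE 0.05, adjusted p = 0.0003). Prosalpha5 (0.28, adjusted p = 0.0003) and Prosalpha2 (0.26, adjusted p = 0.0010) rose by as much. Prosbeta4, which had not passed in brain, had 147, 134 and 150 CPM in the libraries labelled Atx2 RNAi, against 120, 128 and 122 CPM in the mock libraries (0.22, adjusted p = 0.0016). Groups did not overlap for any of these genes. Prosbeta7 and Prosbeta5 rose by 0.19 each, and the catalytic Prosbeta1 and Prosbeta2 by 0.16 and 0.15. Prosalpha4 (0.03), Prosalpha7 (0.06) and Prosalpha6 (0.09) did not pass, with adjusted p between 0.0741 and 0.676. Of the ubiquitin receptors, Rpn10 rose by 0.15 (adjusted p = 0.0084), and Rpn1 (0.05) and Rpn13 (0.09) did not pass.

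In S2 cells 10 members were called in all 13 fits: Prosalpha2, Prosalpha3, Prosalpha5, Prosbeta3, Prosbeta4, Prosbeta5, Prosbeta6, Prosbeta7, Rpn3 and Rpn9. The number of all genes called in every fit was not counted here either. The count of 19S genes moved most with single libraries. It was 2 without mock replicate 2, 3 without mock replicate 1, mock replicate 3 or the library labelled Atx2 RNAi replicate 1, and 8 without the library labelled Atx2 RNAi replicate 2. The ratio of the core sum to the 19S sum was 0.482, 0.467 and 0.493 in the libraries labelled Atx2 RNAi and 0.461, 0.449 and 0.439 in the mock libraries, without overlap. The length trend was present here as well, since the 973 other genes in the length span of the core had a median of 0.11 and 27.5% of them rose, and the 4506 in the span of the 19S genes had 0.01 and 13.4%. Other genes of 1000 to 1400 nt had a median of 0.08 and those of 1400 to 2000 nt one of 0.02. The neuron markers summed to 79.6 to 83.2 CPM in the libraries labelled Atx2 RNAi and 79.5 to 82.6 CPM in the mock libraries. Hemocyte markers, a lineage that S2 cells resemble, summed to 873 to 922 CPM in the libraries labelled Atx2 RNAi and 811 to 835 CPM in the mock libraries (3 of 5 tested higher). Glia markers summed to 218 to 246 CPM in the libraries labelled Atx2 RNAi and 259 to 279 CPM in the mock libraries. Muscle markers summed to 428 to 465 CPM in the libraries labelled Atx2 RNAi and 467 to 483 CPM in the mock libraries. Neither set overlapped, but few genes made up each sum. The muscle sum was nearly all Tm1 (mean 440 against 475 CPM), the 1 muscle marker tested. The glia sum was mostly moody (157 against 188 CPM) and nrv2 (72.6 against 77.9 CPM), and moody alone was called lower. The neuron sum was mostly elav (65.1 against 67.0 CPM). These sums thus describe single genes more than cell types. The part of these markers in the S2 result was not tested.

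Between brain and S2 cells, 10 members rose in both, which is 71.4% of the 14 in brain and 66.7% of the 15 in S2 cells. Of all 7019 genes tested in both, 390 rose in both, or 23.4% of those higher in brain and 37.9% of those higher in S2 cells. The S2 side of these counts follows the labels. With the S2 groups exchanged, the same 10 members would be higher in brain and lower in S2 cells, and 0 members would be higher in both, against 163 of all genes. The 10 members were Prosalpha2, Prosalpha3, Prosalpha5, Prosbeta1, Prosbeta2, Prosbeta3, Prosbeta5, Prosbeta6, Prosbeta7 and Rpn9. All but Rpn9 are core genes, whose transcripts are short. Other genes in the length span of the core rose more often than all genes, 35.1% in brain and 27.5% in S2 cells. Shared rises were not counted by length, so the shares of all genes above take no account of it. Whether the size of the response differed was tested as an interaction over all 12 libraries. For 6 of 34 members the brain response minus the S2 response was above 0, where 16.6% of the 9771 genes tested were, and for 0 it was below 0 with edgeR, with DESeq2 or at an unadjusted p under 0.05, where 8.76% of all genes were. The members' share was thus close to that of all genes. Library size alone gave 2527 genes above and 440 below 0, and DESeq2 1373 above and 1512 below, against 1623 and 856 with TMM. The 6 members were Prosalpha7 and Prosalpha4 (0.63 each), Prosbeta2 (0.45), Rpn6 (0.44), Prosbeta1 (0.38) and Prosbeta7 (0.34), with adjusted p between 0.0041 and 0.0301. By part, 5 of 13 core genes (median difference 0.299) and 1 of 18 genes of the 19S particle (median 0.113) were called above 0. The 1238 other genes in the length span of the core had a median of 0.242, with 19.95% above 0. The 5707 in the span of the 19S genes had a median of 0.168, with 20.8% above 0. The part of length in these differences was not tested. Leaving out the S2 library labelled Atx2 RNAi replicate 2, mock replicate 1 or mock replicate 3 left 4 members called. Leaving out Atx2 RNAi brain replicate 2 gave 9 members. Leaving out Gal4 control replicate 1 gave 7, where 1926 of all 9945 genes tested were above 0. In that fit the core median was 0.290 and the 19S median -0.011. Over all fits, 1240 to 2527 of all genes were above 0. Brain and cell line differ also in how the RNAi was delivered. They differ too in Atx2 itself, whose counts were higher in the S2 libraries labelled Atx2 RNAi. These differences cannot be told apart.

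**Figure D4:**
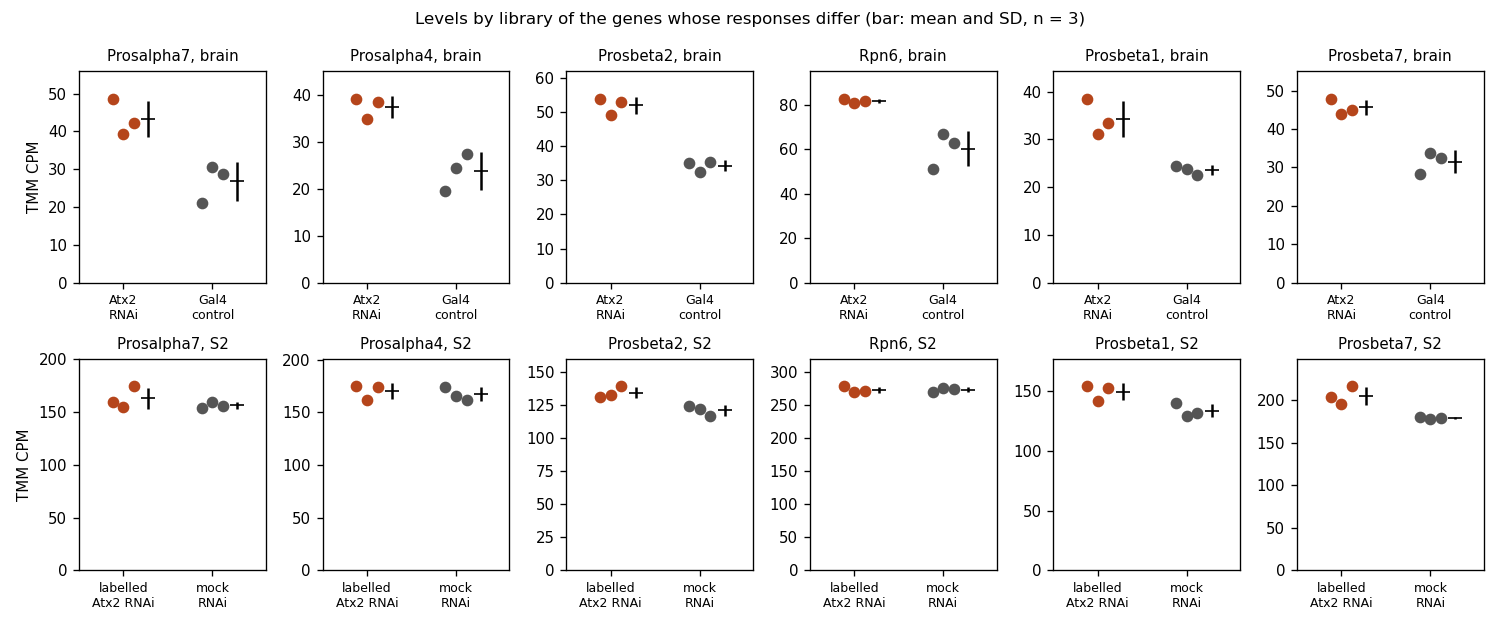
TMM CPM by library (vertical axes from 0) of the 6 genes whose response differed between brain (upper row, Atx2 RNAi left of Gal4 control) and S2 cells (lower row, libraries labelled Atx2 RNAi left of mock RNAi). Points are libraries and bars the mean and SD of 3. In brain each gene's Atx2 RNAi libraries lie above all control libraries, as for Prosbeta2 with 53.8, 49.0 and 52.9 against 35.0, 32.4 and 35.5 CPM, whereas Rpn6 in S2 cells has 278, 270 and 271 against 269, 275 and 275 CPM.

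The level of the subunit mRNAs differed widely between the systems. In Gal4 control brains 33 of 34 members tested were lower than in mock S2 cells, where 42.8% of the 9771 genes tested were, and 1 was higher, where 46.5% of all genes were. The canonical genes were lower in control brains by a median of 3.99-fold (log2 fold change -2.00), between 1.86-fold for the lid subunit Rpn8 and 7.45-fold for the lid subunit Rpn7. Rpn7 had 28.7, 44.5 and 47.9 CPM in control brains, against 294, 301 and 312 CPM in mock S2 cells. Rpn8 had 34.5, 58.7 and 62.9 CPM in control brains, against 95.7, 95.1 and 101 CPM in mock S2 cells. Control replicate 1 was the lowest control library for both genes. Without it the canonical median was -1.90 on the log2 scale, with 19S genes between -2.71 and -0.68. Core genes then ran between -2.91 and -1.34, so the largest drop was that of a core gene. The scale matters for such a contrast, as the median of all genes was 0.11 with TMM, 0.40 with DESeq2's size factors, -0.23 with upper-quartile scaling and -0.48 with library size alone. The canonical median lay below it under each, at -2.00 with TMM, -1.71 with DESeq2, -2.34 with upper-quartile scaling and -2.60 with library size alone. Library size alone also gave 3724 genes higher and 5165 lower, against 4545 and 4184 with TMM. Tissue and experiment cannot be told apart here, since each system was prepared on its own.

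Per kilobase of the longest transcript, the canonical genes were at similar levels in brain. In Gal4 control brains they ran between 24.2 and 49.8 CPM per kb with a median of 34.0, a 2.06-fold span, where all genes had a median of 14.96 CPM per kb and the proteasome median stood at their 72.1st percentile. The ATPases Rpt1 (49.8 ± 12.1, SD, n = 3) and Rpt6 (49.5 ± 9.46) and the catalytic Prosbeta5 (47.9 ± 4.55) were highest, and the alpha subunits Prosalpha4 and Prosalpha6 (24.2 each) and the large scaffold subunit Rpn2 (25.8) lowest. None of the 30 pairs of neighbours in this order was separated beyond the range of its libraries. These ranges include control replicate 1, in which all 18 genes of the 19S particle were low. Rpt1, for example, had 54.5 CPM there, against 83.7 and 88.3 CPM in the other controls. The order without that library was not examined. Rpt1 overlaps CG17985 on the same strand, so its counts are uncertain.

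In mock S2 cells the span was wider, between 66.0 and 313 CPM per kb (4.73-fold) with a median of 128, at the 93.4th percentile of genes whose own median was 20.1 CPM per kb. Rpt1 (313 ± 9, SD, n = 3) and Rpt6 (266 ± 4.75) again led, followed by Prosalpha2 (238 ± 2.81), and Rpn8 (66.0 ± 2.24), Rpn13 (83.5 ± 1.91) and the lid subunit Rpn3 (86.2 ± 3.54) were lowest. Here 12 of 30 neighbouring pairs did not overlap.

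**Figure D5:**
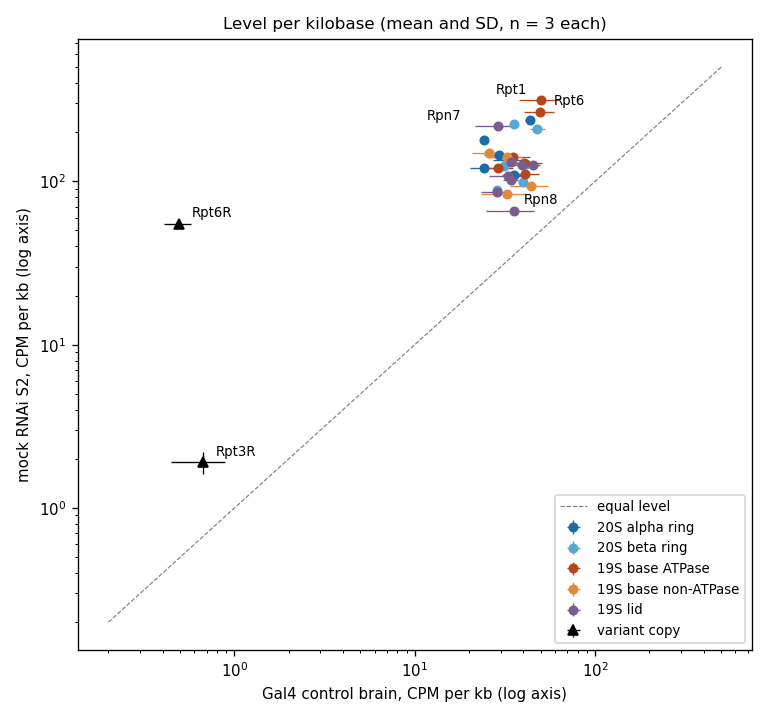
Level per kilobase of the longest transcript in Gal4 control brain (horizontal) and mock RNAi S2 cells (vertical), in TMM CPM per kb on log axes, mean and SD of 3 libraries each. The 31 canonical genes lie between 24.2 and 49.8 in brain and between 66.0 and 313 in S2 cells, all above the line of equal level, and the variant copies Rpt3R and Rpt6R (triangles) lie apart from them.

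Of the 15 variant copies, 14 had at least 1 count and Prosalpha4T1 had none. For 12 of them counts were too low for a test, with at most 18 counts over 12 libraries (Prosbeta2R2). The others below that were Prosbeta4R1 and Rpn12R (8 each), Prosbeta4R2 (7), Prosbeta2R1 (5), Prosalpha3T, Prosbeta5R1 and Prosbeta5R2 (4 each), Prosalpha6T (3), and Prosalpha4T2 and Rpt4R (2 each). Of the 8 counts of Rpn12R, which overlaps Sytbeta on the same strand, 7 were in Gal4 control brain replicate 1. That library also held 153 counts of 9 testis markers, against 9 to 57 in the other brain libraries, and S2 libraries held 29 to 45. The testis marker bol was left out of this sum because it had 11535 to 14196 counts in every brain library.

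The variant that departed from this was Rpt6R, a copy of the ATPase gene Rpt6. It had 9, 7 and 4 counts in Atx2 RNAi brains and 7, 7 and 7 in Gal4 control brains, but 1108, 1063 and 1033 in the S2 libraries labelled Atx2 RNAi and 1196, 1230 and 1448 in mock S2 cells. Its level in mock S2 cells was 55.1 ± 1.27 CPM per kb (SD, n = 3), beside 266 ± 4.75 for Rpt6, and its log2 fold change in control brain over mock S2 was -6.82 (SE 0.13, adjusted p = 1.9e-14). The RNAi contrast in S2 cells gave -0.06 (SE 0.04, adjusted p = 0.311). Rpt3R, a copy of Rpt3, had 11, 9 and 5 counts in Atx2 RNAi brains, 7, 8 and 14 in control brains, 34, 39 and 34 in S2 libraries labelled Atx2 RNAi and 35, 40 and 60 in mock S2 cells, and was not called in the S2 RNAi contrast (adjusted p = 0.667). Reads shared with the parent genes could change both. Rpn13R had 14, 15 and 7 counts in Atx2 RNAi brains and 19, 10 and 16 in control brains, and 0 in all 6 S2 libraries. Its sum of 45 counts in the control brains makes it at least 16.0-fold higher there than in mock S2 cells, against a floor of 3 counts over the mock group, and it was the 1 member higher in brain. It overlaps rg and CG15465 on the same strand, so these reads may belong to them.

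Other genes of the pathway were taken from lists chosen with earlier results known. Among 11 tested genes for other proteasome subunits, assembly factors and regulators, 5 rose in brain, where 23.3% of all genes tested did. The other 6 did not pass. Sem1, a small lid subunit outside the symbol rule, averaged 22.6 ± 1.55 CPM in Atx2 RNAi brains and 13.2 ± 1.81 CPM in control brains (SD, n = 3 each; log2 fold change 0.77, edgeR adjusted p = 0.0036). The core maturation factor Pomp rose by 0.45, the proteasome regulator PI31 by 0.45, the activator gene REG by 0.46 and CG9588 by 0.62. In S2 cells 6 of the 11 rose, among them Sem1 (0.20), PI31 (0.20), Pomp (0.12) and CG11885 (0.38). Uch-L5, a proteasome-bound deubiquitinase, fell by 0.12. Of all genes tested in S2 cells, 14.5% rose and 14.6% fell.

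Among 7 regulators of proteasome gene transcription, 3 rose in brain, which were maf-S (0.43), the small Maf partner of cnc, the Ddi1-type protease gene rngo (0.46) and the N-glycanase gene Pngl (0.37). The Nrf family factor cnc, which drives proteasome genes, had 0.28 and missed the threshold (adjusted p = 0.0622). In S2 cells maf-S alone of the 7 rose (0.36). Of 9 genes of ubiquitin and its conjugation, the ubiquitin fusion gene RpS27A rose by 0.57 in brain, and the polyubiquitin gene Ubi-p5E fell by 0.45 and the conjugating enzyme gene vih by 0.43. In S2 cells RpL40, another ubiquitin fusion gene, rose by 0.17 and Uba1 and vih fell by 0.10 and 0.15. Of 6 genes for shuttling and unfoldase partners, Npl4, a cofactor of the unfoldase TER94, rose by 0.60 in brain, and Ufd1-like (0.25) and p47 (0.11) rose in S2 cells. Beside these calls, 23.3% of all genes tested rose and 18.6% fell in brain, and 14.5% rose and 14.6% fell in S2 cells. Whether any list responded as a set was not tested, and calls this few in lists this short do not show it.

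Whether Atx2 meets these mRNAs was asked with TRIBE, in which the fused deaminase marks adenosines near where Atx2 binds. Edit sites were listed for 4 members, a share close to that of all genes. In Atx2 WT, 0 of the 32 members tested in brain had a listed site, where 5.35% of all 9197 genes tested had one in at least 1 library. Over all 6 forms of Atx2, 4 members had a site in at least 1 library, where 14.8% of all genes had, and 2 members, Prosbeta3 and Rpn9, had one in both libraries of a form, where 6.05% had. In delta Lsm, which lacks the Lsm domain, 3 members had a site, where 10.7% of all genes had. No member had a site in delta cIDR, where 1.4% of all genes had, or in Lsm+LsmAD only, where 1.23% had, and nothing about the members can be read from counts this low. Positions read fewer than 20 times or edited under 15% were not listed by the authors, and the lists hold no read numbers, so single percents carry no interval. By the study's methods the WT libraries did not keep the strand of the RNA, whereas those of the domain mutants did and had shorter reads. WT and the other forms thus differ also in library type, and these cannot be told apart. The canonical members had a median of 39.5 CPM in Gal4 control brains, against 134 CPM for the 492 genes with a WT site and 23.7 CPM for all genes tested.

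The site in Prosbeta3 (FBgn0026380) lies at position 9005455 of 3R in dm6, on the minus strand, within a gene that runs from 9005313 to 9006226. It is the base numbered 2 of the stop codon, which spans 9005454 to 9005456 and is codon 206 of 206 with the stop counted. It was edited by 18.8% and 22.2% in the delta Lsm libraries and by 25.0% in delta LsmAD replicate 2, and was not listed in delta LsmAD replicate 1. In Rpn9 (FBgn0028691, 3R from 23731375 to 23733462, minus strand) the site at 23732354 lies in the coding sequence at base 3 of codon 148 of 383, and was edited by 26.6% and 21.0% in delta mIDR, in which the middle disordered region is deleted.

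The other sites were each listed in a single library. Rpn2 (FBgn0028692, 3R from 29153524 to 29157255, plus strand) had a site at 29155749, base 1 of codon 653, with 15% in delta Lsm replicate 2, at the lower limit of the list. Rpt1 (FBgn0028687, 2R from 7652440 to 7653954, minus strand) had one at 7652795, base 2 of codon 348 of 434, with 18.3% in delta Lsm replicate 1, and CG17985 overlaps there. All 4 sites were in coding sequence. Of the 4 genes Prosbeta3 and Rpn9 rose in both RNAi contrasts, where 390 of all 7019 genes tested in both did. Rpn2 rose in S2 cells alone, by 0.11, where 14.5% of all genes tested rose. In brain Rpn9 was called in 5 of 13 fits and Prosbeta3 in 9, and Rpn2 in S2 cells in 8. The S2 directions follow the labels. A link between edit sites and response was not tested.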

How the data were processed

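The authors aligned reads with STAR, counted those in the sense of each gene with HTSeq and deposited raw counts. The annotation they counted against is not given in the sources used here. Lines of the count files that name no gene (13.5% to 34.6% of a library's lines summed) were left out. Edit percent values were made by the authors with TopHat2 on dm6 and deposited per position, for positions with at least 20 reads and 15% edited. Members were placed on Ensembl release 115 (BDGP6 release 6.54, the coordinates of dm6), which matched 99.4% of gene symbols.

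The tests of counts used edgeR 4.0.16 under R 4.3.3 (scaling by TMM, filterByExpr with a minimum count of 10, robust quasi-likelihood fit, Benjamini-Hochberg adjustment over all genes tested), brain and S2 cells apart and all 12 libraries together for the interaction and the level contrast. CPM in each system come from its own TMM factors, and levels between systems and per kilobase from factors over all 12 libraries. Alternatives were DESeq2 1.42.0, upper-quartile scaling, library size alone, no filter, a filter at 1 CPM, the replicate number as a block, and each library left out. With 3 against 3 libraries the smallest two-sided exact p is 0.1. The edgeR step was tested on simulated data. In all 12 pairs of replicates the libraries differed beyond sampling noise. Counting error only is covered by the count floors. Tables and figures were made in Python 3.11.15 with pandas 2.3.3, numpy 2.4.6, matplotlib 3.10.9 and scipy 1.17.1.

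The members and lists were chosen with earlier results of these data known. Genes named were members with an edit site, the 6 members with the largest called change per direction in each RNAi contrast, the catalytic subunits, the ubiquitin receptors and Rpn11, variant copies with a count, the 6 largest called differences between brain and S2 cells, the highest and lowest 3 members per kilobase, and Atx2. Other members and genes of the lists were named after their values were seen. Promoter motifs were not analysed here.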

Additional observations from a re-analysis of the deposited data

Results flagged for a closer look

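The response to Atx2 RNAi differed between brain and S2 cells for 6 members, by the interaction test of edgeR over all 12 libraries with Benjamini-Hochberg adjusted p. These 6 of 34 members are a share close to the 16.6% of all 9771 genes whose difference was above 0. The brain response minus the S2 response on the log2 scale was 0.63 for Prosalpha7 (brain 0.69, S2 cells 0.06, adjusted p = 0.0114) and 0.63 for Prosalpha4 (brain 0.65, S2 cells 0.03, adjusted p = 0.0054). It was 0.45 for Prosbeta2 (brain 0.60, S2 cells 0.15, adjusted p = 0.0041), 0.38 for Prosbeta1 (brain 0.54, S2 cells 0.16, adjusted p = 0.0293) and 0.34 for Prosbeta7 (brain 0.53, S2 cells 0.19, adjusted p = 0.0301). Rpn6 was the single gene of the 19S particle, with 0.44 (brain 0.44, S2 cells 0.00, adjusted p = 0.0142). Atx2 itself was higher, not lower, in the S2 libraries labelled Atx2 RNAi, so the direction of the S2 term rests on the labels.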

How the results depend on the processing

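No called value reversed. Without Gal4 control replicate 1, 4 uncalled 19S genes changed sign in brain: Rpn1 (0.01 with all libraries) had -0.16, Rpn2 (0.14) -0.03, Rpn13 (0.18) -0.06 and Rpt4 (0.02) -0.15. DESeq2 turned the brain balance to 1825 genes higher and 2132 lower. In brain the count of members higher ran between 7 and 13 without each library, that of core genes between 7 and 12, that of 19S genes between 0 and 2, and the members' median log2 fold change between 0.13 and 0.39. Over all genes 1389 to 2193 were higher and 1151 to 1822 lower. The replicate number did not pair the libraries (same-numbered correlations -0.21 to -0.06 in brain, -0.07 to 0.05 in S2 cells). With it as a block, 8 members, 7 core and 1 of the 19S genes were higher in brain, and 14 members in S2 cells. Library size alone gave 7 of the 19S genes higher, a median of 0.50 and 925 genes lower, while DESeq2 and no filter on low counts gave 1 of the 19S genes each.

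In S2 cells leaving out a library gave 11 to 18 members, 9 to 10 core and 2 to 8 of the 19S genes, with medians of 0.07 to 0.12 and 780 to 1181 genes higher and 768 to 1203 lower overall. No filter gave 3 and upper-quartile scaling 10 of the 19S genes, and DESeq2 685 genes higher. The members with a higher response in brain numbered 4 to 9 without each library and 11 with library size alone. Over all fits, 1240 to 2527 of all genes had a higher response in brain. The stricter filter left 0 members higher in control brain than in mock S2 cells, since Rpn13R was no longer tested. Edit sites at 20% left 2 members, at 30% 0, and in both libraries 2, and each replicate alone gave 3 members. For single named genes in brain, 265 of 299 values under alternatives stayed on their side of the threshold, 30 lost and 4 gained a call. In S2 cells these were 295, 9 and 8 of 312. The cause of these shifts was not tested.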
